A study of Mus musculus with 6 samples.

Results

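The carbonic anhydrases are described here in C2C12 myoblasts, a mouse cell line that fuses into multinucleated myotubes when serum is lowered. The 10 members, *Car2*, *Car3*, *Car4*, *Car5b*, *Car8*, *Car9*, *Car11*, *Car12*, *Car13*, and *Car14*, were selected by family name from the 55421 genes of the deposited tables, at a time when results of the same CUG200 and CUG5 libraries were already known. The calls and fold changes of these members are therefore a description of the libraries, and nothing is read from how many of them were called. All 10 were found in the tables, and 8 passed the filter on low counts.

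The study compared a normal and a DM1 (myotonic dystrophy type 1) myoblast model. In the normal group, C2C12 cells carried the plasmid GFP-CUG5, with 5 CTG repeats behind GFP, and in the DM1 group they carried GFP-CUG200, with 200 CTG repeats. Both groups therefore held a GFP plasmid and had gone through G418 selection until stable, and both were sampled at differentiation day 4, in a medium with horse serum and insulin. Each group had 3 libraries of total RNA, and the methods do not say whether these came from separate transfections, so p-values measure only the spread between these samples.

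Carbonic anhydrases interconvert carbon dioxide and bicarbonate, releasing or taking up a proton. The active enzymes hold a zinc ion on 3 histidines, and a further histidine near the mouth of the active site shuttles protons in the fastest of them. *Car2*, *Car3*, and *Car13* are cytosolic, *Car5b* is mitochondrial, and *Car9*, *Car12*, and *Car14* span the plasma membrane with their catalytic domain outside the cell, where *Car4* is held by a lipid anchor. *Car8* and *Car11* are related proteins without carbonic anhydrase activity. In skeletal muscle, *Car3* is an abundant protein of slow fibers, *Car4* and *Car14* are known from the sarcolemma and sarcoplasmic reticulum, and CAR9 and CAR12 are best known from tumor cells at low oxygen.

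The stretch around the zinc site is shown for 7 members that passed the filter, because it tells catalytic forms from a related one. Each is the coding sequence for the residues aligned with residues 92 to 121 of CAR2, read from the GENCODE M21 transcript on GRCm38 along the strand of the gene. The capitals mark the codons aligned with the zinc-binding histidines 94, 96, and 119 of CAR2, counted from its initiating methionine.
Car2: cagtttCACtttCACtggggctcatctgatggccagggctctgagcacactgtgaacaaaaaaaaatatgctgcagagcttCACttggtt
Car3: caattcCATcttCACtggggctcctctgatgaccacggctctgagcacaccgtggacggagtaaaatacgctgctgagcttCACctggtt
Car13: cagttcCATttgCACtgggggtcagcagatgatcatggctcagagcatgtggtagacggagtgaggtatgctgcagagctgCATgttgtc
Car5b: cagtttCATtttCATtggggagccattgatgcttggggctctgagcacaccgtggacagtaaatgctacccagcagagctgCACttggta
Car9: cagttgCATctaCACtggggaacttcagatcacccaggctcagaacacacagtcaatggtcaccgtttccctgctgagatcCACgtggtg
Car12: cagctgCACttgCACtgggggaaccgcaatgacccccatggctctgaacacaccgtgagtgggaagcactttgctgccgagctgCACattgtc
Car11: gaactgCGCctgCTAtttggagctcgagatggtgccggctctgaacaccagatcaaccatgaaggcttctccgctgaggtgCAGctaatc

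Each stretch lies across 2 coding exons, so its coordinates include an intron. On GRCm38 it runs over chr3:14895063-14895546 in *Car2*, chr3:14866844-14868360 in *Car3*, and chr3:14650700-14654895 in *Car13*, all on the plus strand. It runs over chr4:43508958-43509129 in *Car9*, chr9:66747641-66750941 in *Car12*, and chr7:45702542-45702844 in *Car11* on the plus strand, and over chrX:163990509-163991428 in *Car5b* on the minus strand. All 3 zinc-binding histidines were found in *Car2*, *Car3*, *Car5b*, *Car9*, *Car12*, and *Car13*, and also in *Car4* and *Car14*. *Car11* kept none of the 3, with H94R, H96L, and H119Q, where the CAR2 residue is written first and the position is counted in CAR2. At the proton shuttle, *Car3* had H64K, *Car5b* had H64Y, and *Car11* had H64R, whereas *Car2*, *Car4*, *Car9*, *Car12*, *Car13*, and *Car14* had a histidine there.

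The translated coding sequences were then aligned in pairs. The most alike pair was *Car3* and *Car13*, identical at 60.8% of 260 aligned residues, and *Car2* was identical with *Car3* at 56.9% and with *Car13* at 56.5%. These 3 cytosolic members lie with *Car1* in a cluster of 259044 bases on chromosome 3, in the order *Car13*, *Car1*, *Car3*, and *Car2*, and only 13749 bases separate *Car3* from *Car2*. The membrane members *Car9* and *Car12* were identical at 35.2%, and *Car12* and *Car14* at 43.1%. The least alike pair was *Car4* and *Car11*, at 25.5%. The exons of the members overlap no gene of their own strand, but those of *Car9* and *Car14* each overlap a gene of the opposite strand, whose reads cannot be told apart unless the counting used strand.

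**Figure D1:**
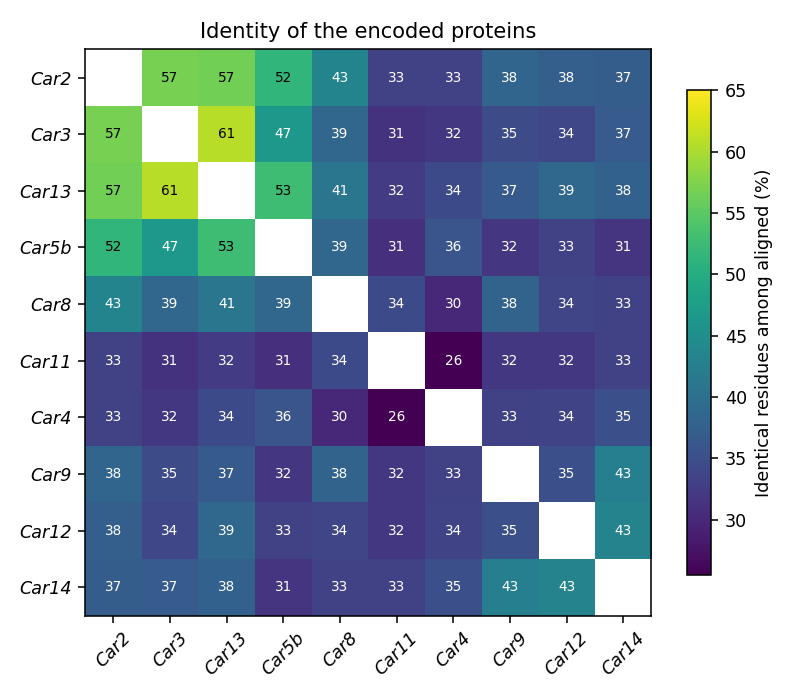
Percent of identical residues among the aligned residues for each pair of members, from translated coding sequences, with genes on both axes and color for the percent. The cytosolic members *Car2*, *Car3*, and *Car13* form the block of highest identity, with *Car3* and *Car13* at 60.8%.

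The libraries held from 61707889 to 80957325 counts, in which 1 count stands for 75 aligned bases and 1 fragment commonly gave 4 counts, and mitochondrial genes took between 8.90% and 13.5% of them. A floor of 3 fragments, or 12 counts, came to 0.148 CPM, the count scaled by the library total, in the deepest and 0.194 CPM in the shallowest library, for counting error only. TPM, the transcript level that StringTie gives, is scaled for transcript length and is used for levels, while fold changes come from edgeR's fit of the counts with TMM scaling, which covered 19005 genes. A gene is named as past both cutoffs where its adjusted p-value is under 0.05 and its absolute log2 fold change is over 1. In the list of 11 myoblast and myotube markers, 8 were lower in the DM1 group at an adjusted p under 0.05. None was higher. Of all genes in this fit, 8.73% were lower and 7.13% higher. Without normal library 3 or DM1 library 2, 5 of the list were lower, beside 2.45% and 2.90% of all genes. Without DM1 library 3, 8 were lower and 1 higher, beside 10.7% and 8.52% of all genes. The summed level of the list was 7544 to 8949 TPM in the normal and 3690 to 5680 TPM in the DM1 libraries. *Acta1* alone carried most of this sum, at means of 4626 TPM in the normal and 2275 TPM in the DM1 group. The 3 markers not called in the main fit were *Mymx* (0.23), *Mymk* (-0.55), and *Myf5* (-0.26), and only *Mymx* had a positive log2 fold change. Most markers of the list, but not all, were thus lower in the DM1 group. Their part in the values of the carbonic anhydrases was not tested. In such bulk samples, fewer cells of a type and less RNA per cell cannot be told apart.

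In the normal group the order of transcript levels was *Car13*, *Car3*, *Car9*, *Car5b*, *Car2*, *Car11*, *Car12*, *Car8*, and *Car14*, from high to low, and *Car4* had no count. This order was the same in each of the 3 normal libraries. In the DM1 group *Car12* ranked 5 and *Car2* ranked 7 in every library, the reverse of their ranks in every normal library. *Car3* ranked above *Car13* in DM1 libraries 1 and 3 and below it in DM1 library 2, so the order of these neighbors was not settled there. In the normal group, *Car9* and *Car5b* did not overlap, since the lowest *Car9* library had 35.4 TPM and the highest *Car5b* library 33.4 TPM. In the DM1 group, *Car12* and *Car11* came close, with the lowest *Car12* library at 16.4 TPM and the highest *Car11* library at 16.7 TPM, so their values overlapped. Other neighbors in the order, down to *Car8*, did not overlap in either group.

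**Figure D2:**
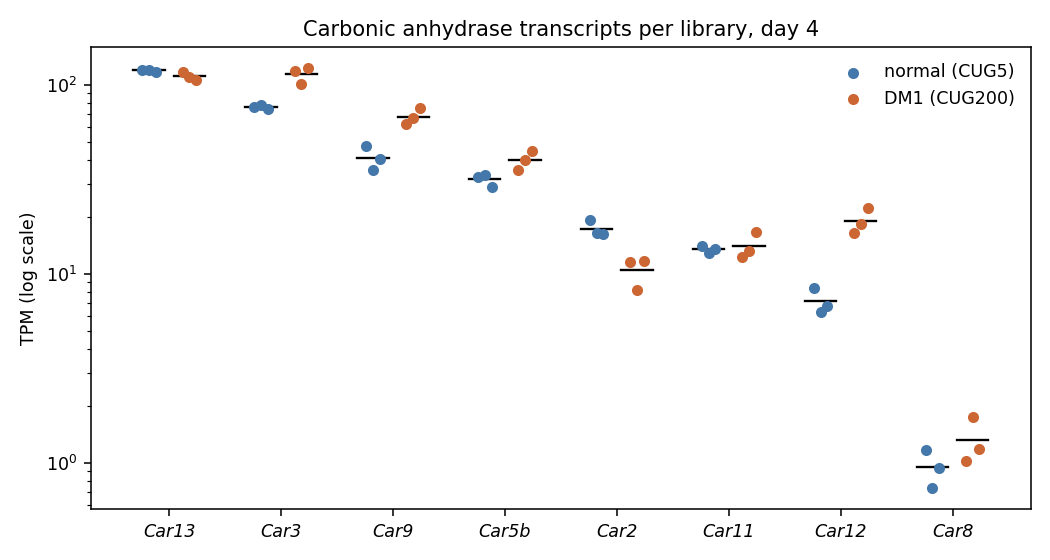
Level of 8 members in TPM on a log axis, with a point for each normal (CUG5) and DM1 (CUG200) library and a bar at the group mean. *Car4* had no count and *Car14* lay at 0.144 TPM or below, and neither is drawn. The groups are apart for *Car3*, *Car5b*, *Car9*, and *Car12*, with DM1 higher, and for *Car2* with DM1 lower, and the *Car13* levels lie close together.

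Among the membrane members, *Car12* had the largest fold change of the 8 members in the fit. It lies at chr9:66713686-66766845 on the plus strand, and its enzyme sets the pH outside the cell. Its counts were 1363, 746, and 1027 in normal libraries 1, 2, and 3 and 2961, 2948, and 2958 in DM1 libraries 1, 2, and 3. All DM1 counts exceeded the highest normal count. They were nearly equal although the DM1 library totals ran from 63529148 to 79094991 counts, so the scaled levels differed more. Its level was 8.37, 6.31, and 6.76 TPM in the normal libraries (mean 7.15 ± 1.09, SD, n = 3) and 16.4, 18.4, and 22.4 TPM in the DM1 libraries (mean 19.1 ± 3.05, SD, n = 3). The highest normal library was thus below the lowest DM1 library. The log2 fold change was 1.54 (SE 0.122, 95% interval 1.27 to 1.82), a 2.92-fold higher level. *Car12* was past both cutoffs in each of 9 other settings and 6 fits that left out a library, with log2 fold changes between 1.30 and 1.64.

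*Car9*, at chr4:43506966-43513729 on the plus strand, encodes the other membrane enzyme found here at an appreciable level. It had 3963, 2337, and 2995 counts in the normal and 5870, 5310, and 4870 counts in the DM1 libraries. Its level was 47.2, 35.4, and 40.4 TPM in the normal group (mean 41.0 ± 5.95, SD, n = 3) and 62.3, 66.4, and 74.9 TPM in the DM1 group (mean 67.9 ± 6.41, SD, n = 3). The groups did not overlap on either scale. Its log2 fold change was 0.82 (SE 0.0958), or 1.77-fold, which passed the cutoff on the adjusted p but not the one on the fold change. It ranged from 0.72 to 0.90 over the other settings and left-out libraries. *Car9* had the higher level of the 2 genes in every library, and the ratio of the *Car12* to the *Car9* level was 0.174 ± 0.00620 in the normal and 0.280 ± 0.0181 in the DM1 libraries (SD, n = 3 each).

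The other membrane members were at or near 0. *Car4*, at chr11:84957786-84966044, had 0 counts in all 6 libraries, which allows up to the floor of 12 counts in each. *Car14*, at chr3:95897768-95904691 on the minus strand, had 3, 7, and 7 counts in the normal and 5, 3, and 5 counts in the DM1 libraries. These values overlapped and stayed below that floor and the filter, and no fold is given for either gene. Both genes encode forms known from mature muscle membranes.

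Among the cytosolic members, *Car3* was higher and *Car2* lower in the DM1 libraries, while *Car13* was nearly level. *Car3*, at chr3:14863512-14872523 on the plus strand, encodes a slow enzyme that makes up a large part of the soluble protein of slow fibers and fat cells. It had 5851, 4793, and 5306 counts in the normal and 10126, 7805, and 7748 counts in the DM1 libraries. Its level was 76.3, 78.5, and 74.1 TPM in the normal group (mean 76.3 ± 2.19, SD, n = 3) and 117.8, 101, and 122 TPM in the DM1 group (mean 113.7 ± 11.0, SD, n = 3). The lowest DM1 library was above the highest normal library. The log2 fold change was 0.70 (SE 0.101), or 1.62-fold, past the cutoff on the adjusted p in all 9 other settings and 6 left-out libraries, with values from 0.56 to 0.76.

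*Car2*, at chr3:14886273-14900770 on the plus strand, encodes the fast cytosolic enzyme. It had 1508, 1048, and 1192 counts in the normal and 1032, 676, and 763 in the DM1 libraries. Every DM1 count was below every normal count. Its level was 19.3, 16.4, and 16.2 TPM in the normal group (mean 17.3 ± 1.75, SD, n = 3) and 11.5, 8.22, and 11.6 TPM in the DM1 group (mean 10.5 ± 1.94, SD, n = 3). The log2 fold change was -0.58 (SE 0.146, 95% interval -0.91 to -0.25), which is 0.669 of the normal level. Leaving out a library ended its call at the adjusted p in 4 of 6 cases, with log2 fold changes of -0.56, -0.59, and -0.58 without normal library 1, 2, or 3 and -0.45 without DM1 library 2. The ratio of the *Car12* to the *Car2* level was 0.434, 0.385, and 0.418 in the normal and 1.42, 2.24, and 1.93 in the DM1 libraries, and these did not overlap.

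*Car13*, at chr3:14641727-14663002 on the plus strand, encodes a cytosolic enzyme and had the highest level of the family in the normal group. It had 13009, 10281, and 11678 counts in the normal and 14229, 11965, and 9387 in the DM1 libraries. The groups overlapped. Its level was 120.2, 119.7, and 117 TPM in the normal group (mean 119.03 ± 1.597, SD, n = 3) and 117, 109.97, and 105 TPM in the DM1 group (mean 110.9 ± 6.01, SD, n = 3). The log2 fold change was 0.03 (SE 0.115, 95% interval -0.23 to 0.29), and its sign turned to -0.10 in the fit of TPM values. The closest relative of *Car13* by sequence, *Car3*, thus had a log2 fold change of 0.70 beside 0.03 for *Car13*. The ratio of the *Car3* to the *Car13* level was 0.635, 0.656, and 0.633 in the normal and 1.00, 0.921, and 1.16 in the DM1 libraries, without overlap.

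*Car5b*, at chrX:163976822-164027997 on the minus strand, encodes the mitochondrial enzyme that supplies bicarbonate to carboxylases. It had 5233, 4283, and 4288 counts in the normal and 6397, 6498, and 5900 counts in the DM1 libraries. Its level was 32.4, 33.4, and 28.8 TPM in the normal group (mean 31.5 ± 2.40, SD, n = 3) and 35.3, 40.0, and 44.4 TPM in the DM1 group (mean 39.9 ± 4.52, SD, n = 3). The groups were apart by a small gap on the TPM scale. Its log2 fold change was 0.46 (SE 0.0818, 95% interval 0.27 to 0.65), or 1.38-fold, with an adjusted p under the cutoff. That call was lost in the fits of TPM values (0.33 and 0.34) and without normal library 3 (0.44).

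The related members were not called. *Car8*, at chr4:8143362-8239041 on the minus strand, encodes a protein that binds the inositol trisphosphate receptor ITPR1. It had 213, 106, and 158 counts in the normal and 208, 318, and 177 counts in the DM1 libraries, or 1.17, 0.733, and 0.942 against 1.02, 1.74, and 1.18 TPM. These levels overlapped, and the log2 fold change was 0.60 (SE 0.255, 95% interval 0.02 to 1.18, unadjusted for the number of genes tested). It was 0.33 without DM1 library 2 and 0.24 with log2(TPM + 1). *Car11*, at chr7:45699843-45704682 on the plus strand, had 704, 573, and 622 counts in the normal and 713, 695, and 688 counts in the DM1 libraries. Its level was 14.04, 12.9, and 13.5 TPM in the normal and 12.3, 13.2, and 16.7 TPM in the DM1 libraries, and the groups overlapped. Its log2 fold change was 0.16 (SE 0.114, 95% interval -0.10 to 0.42).

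**Figure D3:**
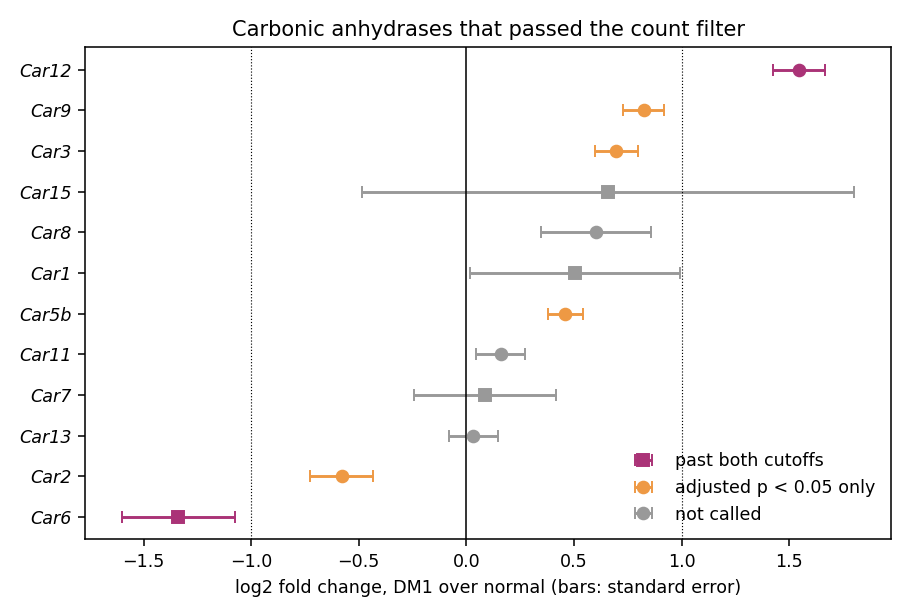
Log2 fold change of DM1 over normal on the x axis for the carbonic anhydrases that passed the filter, with standard errors as bars, members as circles, and other family genes as squares. Dotted lines mark -1 and 1. *Car12* lies beyond 1 at 1.54 and *Car6* beyond -1 at -1.34, and the other genes lie between the lines.

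By the fit, 1 member was past both cutoffs as higher (*Car12*) beside 1.36% of all tested genes, and 0 members were lower beside 0.816%. Likewise 0 members were lower by that fold at an unadjusted p under 0.05 or by DESeq2. At an adjusted p under 0.05 alone, 4 of the 8 tested members were higher beside 7.13% of all tested genes, and 1 was lower beside 8.73%. With TMM scaling, the CPM values of 6 tested members lay without overlap above the normal group, beside 17.9% of all genes, and those of 1 lay below it, beside 19.3%. On the TPM scale, and in CPM without TMM scaling, *Car8* and *Car11* overlapped between the groups. The share of all genes without overlap was taken for TMM-scaled CPM only. The median log2 fold change was 0.53 over the 8 tested members and 0.015 over all genes tested. At an adjusted p under 0.05, 3 members were higher and 0 lower without normal library 3, beside 2.74% and 2.45% of all genes in that fit. Without normal library 1 or 2 or DM1 library 2, 4 were higher and 0 lower, beside shares of all genes between 3.01% and 3.35% higher and between 2.90% and 3.90% lower. With log2(TPM + 1), 3 were higher and 1 lower beside 2.25% and 4.29%. In fits of log2(TPM + 1) and log2(TPM + 0.1) the median over all genes was -0.062 and -0.094, so TPM differences lie lower on the whole.

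The members were then summed by the place where their proteins work. The summed level of all members was 319, 303.4, and 298 TPM in the normal libraries and 374, 359, and 398.8 TPM in the DM1 libraries, and the groups did not overlap. The mean was 306.9 ± 10.9 TPM in the normal and 377.4 ± 19.97 TPM in the DM1 group (SD, n = 3 each), a ratio of 1.23, and the ratio was 1.34 when TMM-scaled CPM was summed. The membrane forms had 48.3 ± 6.95 TPM in the normal and 87.0 ± 9.48 TPM in the DM1 group (SD, n = 3 each), a ratio of 1.80. Their share of the summed level of the 10 members was 17.4%, 13.8%, and 15.9% in the normal and 21.0%, 23.6%, and 24.4% in the DM1 libraries. The cytosolic share went the other way, from a mean of 69.3% to 62.3%, while the summed cytosolic level was 212.6 ± 4.47 and 235.1 ± 14.1 TPM (SD, n = 3 each). The mitochondrial share was 10.3% and 10.6% and that of the related forms 4.70% and 4.07%. These shares rest on values known when the members were selected by family name, and were not tested.

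**Figure D4:**
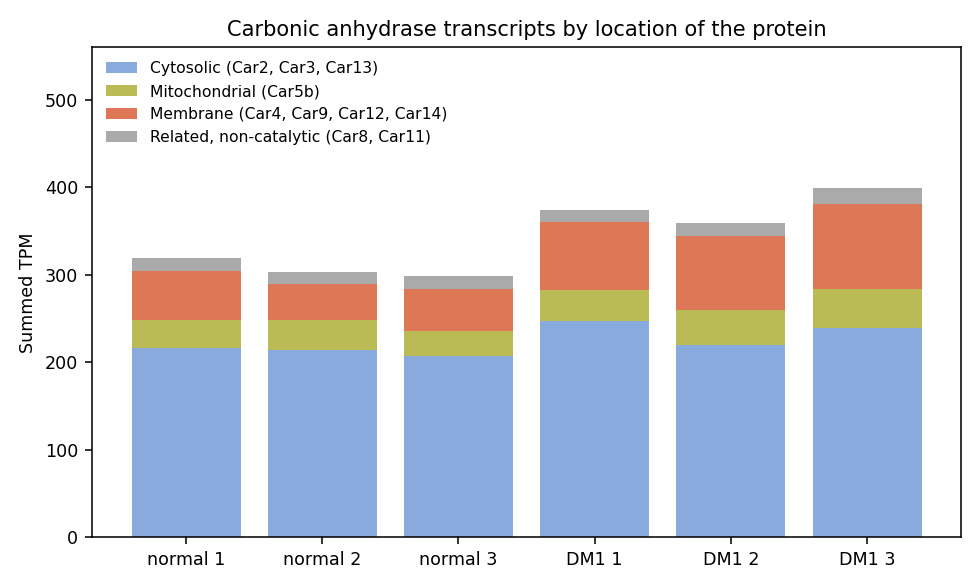
Summed TPM of the members in each library on the y axis, stacked by the place of the protein, for normal libraries 1 to 3 and DM1 libraries 1 to 3. The membrane forms reach 41.8 to 55.6 TPM in the normal and 78.8 to 97.4 TPM in the DM1 libraries.

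The 6 other carbonic anhydrase genes were also read. *Car6*, the secreted form known from saliva, lies at chr4:150187015-150201332 on the minus strand and had 306, 242, and 338 counts in the normal and 107, 162, and 79 counts in the DM1 libraries. Its level was 5.28, 4.97, and 5.34 TPM in the normal and 1.38, 2.34, and 1.39 TPM in the DM1 libraries, without overlap. By edgeR's quasi-likelihood test it was lower with a log2 fold change of -1.34 (SE 0.262, adjusted p = 0.0125), so it was past both cutoffs. That call was lost without normal library 3, where the log2 fold change was -1.20. *Car1*, *Car7*, and *Car15* were tested and not called, and *Car5a* and *Car10* did not pass the filter, with at most 11 and 4 counts in a library.

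Bicarbonate formed by these enzymes crosses membranes through transporters of the Slc4 and Slc26 families. Of 13 such genes tested, 2 rose and none fell at an adjusted p under 0.05, beside 7.13% and 8.73% of all genes, with 1 past both cutoffs, and their median log2 fold change was 0.16 beside 0.015 over all genes. The gene past both cutoffs was *Slc4a4*, a sodium bicarbonate cotransporter, at 0.266, 0.332, and 0.233 TPM in the normal and 0.809, 1.14, and 1.29 TPM in the DM1 libraries (log2 fold change 1.74, SE 0.198, edgeR adjusted p = 0.00211). Its level was low throughout, and on log2(TPM + 1) the difference was 0.70, short of the fold cutoff. *Slc4a8*, a sodium-driven chloride bicarbonate exchanger chosen after its values were seen, was higher by 0.92 (SE 0.113, edgeR adjusted p = 0.00267). Of 17 genes of proton and lactate transport, 4 rose (*Slc16a3*, *Emb*, *Slc9a5*, and *Bsg*) and 1 fell (*Slc9a9*) at the adjusted p, beside 7.13% and 8.73% of all genes, and none was past both cutoffs. *Slc16a3*, a lactate exporter, rose by 0.70 (SE 0.0940, edgeR adjusted p = 0.00329), and *Emb*, which accompanies such carriers to the membrane, rose by 0.98 (SE 0.211, edgeR adjusted p = 0.0177). The TPM values of *Slc16a3*, *Bsg*, and *Slc9a5* overlapped between the groups. *Slc9a5*, *Bsg*, and *Slc9a9* were chosen after their values were seen. Leaving out a library ended the call of *Emb* in 4 of 6 cases, of *Slc9a5* in 4, and of *Bsg* and *Slc9a9* in 5 each, and DESeq2 called 0 genes of this list lower. Without a library of the normal group or DM1 library 2, 1 gene of the list rose and 0 fell. In those fits 2.74% to 3.35% of all genes were higher and 2.45% to 3.90% lower. Without DM1 library 3, 3 rose and 3 fell, beside 8.52% and 10.7% of all genes.

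Genes that share a substrate or a partner with the members were read next. Of 3 tested carbon dioxide and water channels, 1 fell at the adjusted p beside 8.73% of all genes, and none rose beside 7.13%. The gene that fell was *Aqp5*, a water channel (log2 fold change -0.52, SE 0.119, edgeR adjusted p = 0.0226). *Aqp11* had a value of 1.19 (SE 0.404) that was not called (edgeR adjusted p = 0.0809). Its level was low, at 0.238, 0.411, and 0.166 TPM in the normal and 0.706, 0.240, and 0.604 TPM in the DM1 libraries, which overlapped. The value ranged from 0.25 to 1.51 over all settings, and it was called higher without DM1 library 2. Of 9 carboxylases that use bicarbonate, 3 fell at the adjusted p (*Pcx*, *Pccb*, and *Acaca*) beside 8.73% of all genes, and none rose beside 7.13%. *Acaca*, acetyl-CoA carboxylase, was chosen after its values were seen, and its TPM values overlapped between the groups. The values were -0.87 (SE 0.180, edgeR adjusted p = 0.0147) for *Pcx*, pyruvate carboxylase, and -0.51 (SE 0.104, edgeR adjusted p = 0.0143) for *Pccb*, a propionyl-CoA carboxylase subunit. The calls at the adjusted p were lost in 3 of the 6 left-out fits for *Aqp5*, 1 for *Pcx*, 4 for *Pccb*, and 5 for *Acaca*. *Car5b*, whose product serves such enzymes, had a value of 0.46 in the same fit. Of 7 genes for inositol trisphosphate receptors and their partners, 0 were called by edgeR or DESeq2 in either direction, 0 had an unadjusted p under 0.05, and their median was -0.16. The smallest p-values among them belonged to *Itprid2* (-0.16, SE 0.0714, edgeR adjusted p = 0.164) and *Itpr3* (-0.16, SE 0.0743, edgeR adjusted p = 0.182).

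*Car9* and *Car12* are textbook targets of the hypoxia-inducible factor HIF, so a list of 34 other hypoxia-inducible genes was read beside them. All 34 were tested, 17 rose and none fell at an adjusted p under 0.05, beside 7.13% and 8.73% of all genes, and 28 had a positive log2 fold change. The median was 0.39 beside 0.015 over all genes, and 2 were past both cutoffs. These were *Ero1l*, an endoplasmic reticulum oxidase, at 1.16 (SE 0.130, edgeR adjusted p = 0.00204), and *Adm*, the vasodilator adrenomedullin, at 1.11 (SE 0.140, edgeR adjusted p = 0.00280). *Ero1l* had 60.4, 53.8, and 52.0 TPM in the normal and 111, 122.9, and 105 TPM in the DM1 libraries, without overlap. *Bnip3*, a mitophagy receptor, and *Vegfa*, an angiogenic factor, were chosen after their values were seen and had log2 fold changes of 0.73 (SE 0.0975) and 0.72 (SE 0.125), near the 0.82 of *Car9*. *Slc2a1*, a glucose transporter often used as a hypoxia marker and also chosen after its values were seen, had a value of 0.01 (SE 0.0922). The count of 17 fell to 8 and 9 without normal library 2 or 3, to 9 without DM1 library 2, and to 7 in the fits of TPM values, and 1 gene was called lower without normal library 2. The share of all genes called higher also fell in these fits, to 3.35%, 2.74%, 3.01%, and, with log2(TPM + 1), 2.25%. The values of *Ero1l* and *Adm* on log2(TPM + 1) were 1.02 and 0.89, so *Adm* was then short of the fold cutoff.

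Of 9 tested components of the HIF pathway, 1 rose and 1 fell at the adjusted p, beside 7.13% and 8.73% of all genes. Their median was -0.03. *Egln3*, a prolyl hydroxylase that marks HIF for decay and is itself a HIF target, rose by 0.73 (SE 0.0922, edgeR adjusted p = 0.00277). *Hif1an*, the asparaginyl hydroxylase that inhibits HIF, fell by 0.40 on the log2 scale (SE 0.0886, edgeR adjusted p = 0.0199), a call that ended in 3 of 6 cases when a library was left out. The transcript of *Hif1a*, chosen after its values were seen, had a value of -0.03 (SE 0.0783) and was not called.

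Promoters of 6 members, *Car4*, *Car5b*, *Car9*, *Car11*, *Car12*, and *Car14*, were found in RefSeq (GRCm38.p6), each from 250 bases before to 50 bases after a start. They were searched on both strands for ACGTG and GCGTG, the core letters that HIF binds, of which 19.6% and 32.4% of all 32851 such windows hold at least 1. At least 1 of the 2 strings is held by 43.8% of these windows. The window of *Car9* held 1 ACGTG, on the minus strand, 18 bases before the RefSeq start and inside the span of the gene given above, which starts earlier. Its surroundings, chr4:43506995-43507024 on the plus strand, are shown because *Car9* is the member best known for this element, with the match in capitals as CACGT.
Car9: cctatttccgatgCACGTacagcccgtcca
The window of *Car12*, the member with the largest fold change, held neither string. *Car4* and *Car14*, both at or near 0 counts, held 1 ACGTG each, the window of *Car5b* held 5 GCGTG, and each of the 2 windows of *Car11* held 1 GCGTG. A match here is a description of the letters and says nothing of binding, and the lack of a match concerns only this window.

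*Car3* is a known slow fiber gene, so fiber genes were read beside it. Of 14 slow fiber genes tested, 11 fell and none rose at an adjusted p under 0.05, beside 8.73% and 7.13% of all genes, with a median of -0.59. The 11 became 7 without normal library 1 or 3, beside 3.40% and 2.45% of all genes lower in those fits. *Myh7*, the slow myosin heavy chain, was lowest at -2.13 (SE 0.184, edgeR adjusted p = 9.97e-04), and *Csrp3*, a Z-disc protein, was at -1.04 (SE 0.162, edgeR adjusted p = 0.00561). The call of *Csrp3* past both cutoffs was lost without normal library 1 (-0.95) or DM1 library 3 (-0.96). Of 14 fast fiber genes, 9 fell and none rose, beside 8.73% and 7.13% of all genes. Without normal library 1 or 3 or DM1 library 2, 5 fell, beside 3.40%, 2.45%, and 2.90% of all genes. Their median was -0.59, and 4 were past both cutoffs, namely the fast myosin heavy chains *Myh1* (-1.78), *Myh2* (-1.76), and *Myh4* (-1.42) and the myosin-binding *Mybpc2* (-1.42), of which *Myh2* was chosen after its values were seen. On log2(TPM + 1) the value of *Mybpc2* was -0.94, short of the fold cutoff. *Myh3*, embryonic myosin heavy chain and a marker of myotubes, fell by 1.32 on the log2 scale. The value of *Car3* in the same fit was 0.70, opposite in sign to both medians.

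**Figure D5:**
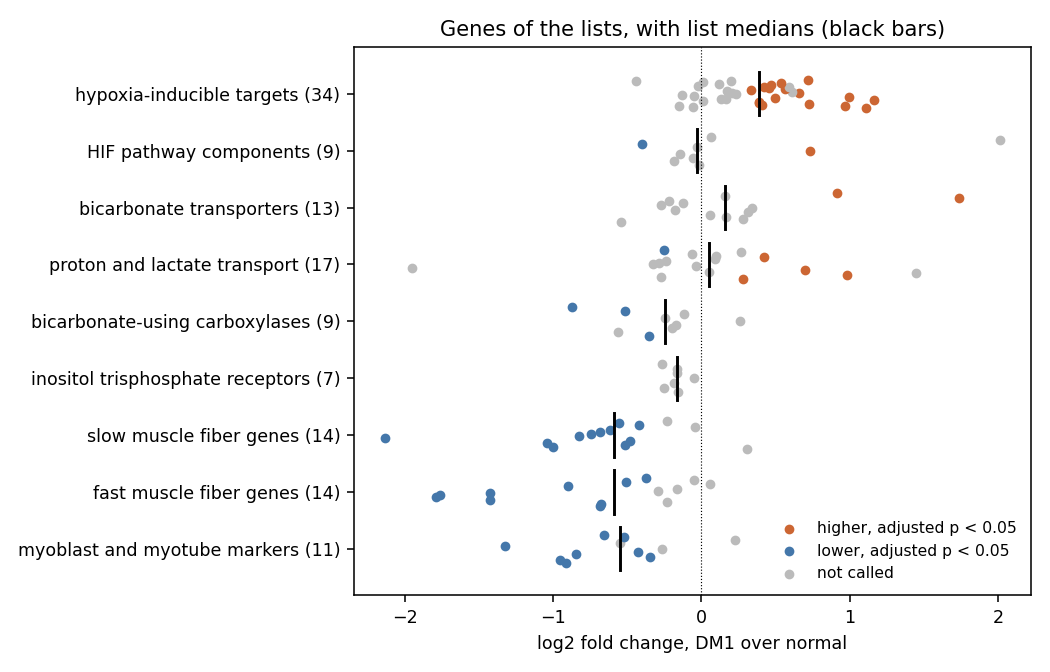
Log2 fold change of DM1 over normal on the x axis for each tested gene of 9 lists, with the number tested in brackets, a black bar at the list median, and color for the call at an adjusted p under 0.05. Hypoxia-inducible targets center on 0.39, and slow fiber, fast fiber, and myotube genes center on -0.59, -0.59, and -0.55.

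*Car2*, *Car3*, and *Car12* are also expressed outside muscle, and markers of such cells were read. Of 11 adipocyte markers, 6 had no count in any library (*Adipoq*, *Cidec*, *Cfd*, *Lep*, *Retn*, and *Fabp4*), and the list summed to 11.8 to 13.0 TPM in the normal and 10.2 to 14.98 TPM in the DM1 libraries. Most of this sum came from *Pparg*, at means of 7.31 and 6.18 TPM in the normal and DM1 groups, and *Lipe*, at 4.13 and 5.33 TPM. Osteoclast markers, of cells in which *Car2* acidifies bone, summed to 11.8 to 14.5 and 10.7 to 16.4 TPM, with *Dcstamp* at 0. Of these sums, *Itgb3*, which other cells also express, carried 11.9 and 12.2 TPM on average. Erythroid markers summed to 99.5 to 112 and 106 to 120.2 TPM, with *Hbb-bs* and *Hbb-bt* at 0, and epithelial markers to 30.4 to 41.8 and 35.0 to 42.1 TPM, with *Epcam* at 0. *Hba-a1* and *Hba-a2* carried nearly all of the erythroid sum, at means of 55.6 and 48.3 TPM in the normal group, and *Krt19* nearly all of the epithelial sum, at 34.0 TPM. None of the 3, 3, 4, and 2 genes tested in these lists was called by edgeR or DESeq2 in either direction. An unadjusted p under 0.05 was found for 2 of them, *Lipe* and *Krt19*, with log2 fold changes of 0.33 and 0.25 (adjusted p = 0.133 and 0.162). The other genes of these lists with the smallest p-values were *Cebpa* (0.23), *Itgb3* (0.15), *Atp6v0d2* (-1.11), *Hba-a1* (0.24), *Hba-a2* (0.18), and *Cdh1* (-0.26), and the reads of *Hba-a1* and *Hba-a2* are hard to tell apart because the copies are nearly identical.

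Genes beside the members were read because position had no part in the choice. Within 500 kb of a member, 163 other genes were tested, and 9 rose (5.52%) and 16 fell (9.82%) at an adjusted p under 0.05, beside 7.13% and 8.73% of all genes. Beside *Car12*, 15 genes were tested, of which 1 rose (*Rps27l*, 0.46) and 1 fell (*Fbxl22*, -0.54) at that level and none was past both cutoffs. *Tpm2*, a tropomyosin gene 982 bases from *Car9*, was lower by 0.46 on the log2 scale (SE 0.101, edgeR adjusted p = 0.0177), in contrast to 0.82 for *Car9*, and *Dbp*, 406 bases from *Car11*, was higher by 0.52 (SE 0.131, edgeR adjusted p = 0.0292). *Tpm2*, *Dbp*, *Rps27l*, and *Fbxl22* were chosen after their values were seen. Around the cluster on chromosome 3, the tested neighbors *Lrrcc1*, *E2f5*, and *Rbis* were not called, nor was *Car1* within it. The only neighbor past both cutoffs, *4930502E09Rik* near *Car4*, had no count in any DM1 library and between 0.307 and 0.449 TPM in the normal libraries, and its call was lost by DESeq2 and in most other settings.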

How the data were processed

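The samples were C2C12 myoblasts of the CUG5 (normal) and CUG200 (DM1) groups, differentiated for 4 days, with 3 libraries of total RNA each, grouped by the sample labels. According to the methods and the submitters' processing notes, reads were trimmed with Trim Galore, aligned to GRCm38 with HISAT2, and quantified with StringTie. The authors deposited counts per gene without normalization. Per library, the authors also deposited StringTie's coverage of each gene, its FPKM, and its TPM, of which FPKM and TPM are scaled for length and library size. TPM served for levels and an alternative test, coverage for the unit of a count, and FPKM was not used. Coverage gave the count to within 1 in 99.3% of 57135 values of genes with a single transcript. The read length and the strand setting are not given in the sources used here.

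Genes were filtered with filterByExpr (minimum count 10) and scaled by TMM. The robust quasi-likelihood test of edgeR, without covariates, compared the groups, and p-values were adjusted after Benjamini-Hochberg over 19005 genes. A gene was past both cutoffs at an absolute log2 fold change over 1 with an adjusted p under 0.05. TMM factors lay between 0.940 and 1.05, and the biological coefficient of variation was 0.221. In fragments, libraries of a group differed by more than counting noise (chi-square per degree of freedom from 10.7 to 40.2), so none was taken as a copy of another. The test was checked on simulated data. Members and gene lists were chosen with earlier results of these data known. Named were all carbonic anhydrases, up to 3 genes per list and direction past the cutoffs or else the 2 with the smallest p, neighbors past the cutoffs, and defining markers. Genes outside this rule are given as chosen after their values were seen.

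Protein sequences were planned from RefSeq, and coding sequences of GENCODE M21 were translated and aligned globally (BLOSUM62) in their place. The zinc-site stretch of 1 member is not reported here. Alternatives were DESeq2, its size factors, other filters, no robust estimation, a replicate block, counts divided by 4, no fold cutoff, limma-trend on TPM with a pseudocount of 1 or 0.1, and each library left out. Software was limma 3.58.1, DESeq2 1.42.0, and edgeR 4.0.16 in R 4.3.3, and Biopython 1.88, matplotlib 3.10.9, numpy 2.4.6, and pandas 2.3.3 in Python 3.11.15.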

Additional observations from a re-analysis of the deposited data

How the results depend on the processing

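*Car12* was past both cutoffs in all settings run, and no other member ever was. Without the cutoff on the fold change, 4 members were higher and 1 lower, beside 7.13% and 8.73% of all genes. The ratio of the members' summed levels was 1.34 with CPM in place of 1.23 with TPM. *Car13* turned to -0.10 with log2(TPM + 1) and -0.10 with log2(TPM + 0.1) and ranged from -0.064 to 0.14 with a library left out, and *Cebpa* ranged from -0.032 to 0.48 there. *Car8* was 0.24 with log2(TPM + 1) and ranged from 0.33 to 0.74 with a library left out. The cause was not tested. In the other lists, 3 genes were higher past both cutoffs, against 24 without the fold cutoff and between 3 and 6 with a library left out, and 8 were lower, against 35 without the fold cutoff and 13 with log2(TPM + 0.1). Of the neighbors, 0 were higher, against 9 without the fold cutoff and 0 to 2 with a library left out. The 1 lower neighbor became 16 without the fold cutoff and 0 with DESeq2, at least 10 counts in every library, the replicate block, counts divided by 4, or log2(TPM + 1), and 0 to 1 with a library left out.

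Over all genes, edgeR called 259 higher and 155 lower, against 61 and 79 with log2(TPM + 1), 171 and 194 with log2(TPM + 0.1), and 182 and 91 without normal library 3. At an adjusted p under 0.05 alone, 7.13% of genes were higher and 8.73% lower, against 2.74% and 2.45% without normal library 3 and 2.25% and 4.29% with log2(TPM + 1). With the replicate number as a block it called 234 and 139, and *Car12* had a log2 fold change of 1.55. In that fit 4 members were higher and 1 lower at an adjusted p under 0.05, beside 6.98% and 7.88% of all genes. Deviations of same-numbered libraries correlated at 0.125, 0.0634, and 0.0619. Not all exceeded 0.1, so the libraries were not treated as paired, although each correlated best with its own number. At 3 libraries a group, members near the floor (*Car4*, *Car14*) could not be compared.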
